A study of Mus musculus with 5 samples.

Results

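The genes described here are 32 genes of cholesterol and fatty acid synthesis, out of 27726 genes common to 5 single-cell libraries of mouse lung group 2 innate lymphoid cells (ILC2s). They were taken as a list of symbols, and all 32 were detected in every library. The list holds 7 genes of the mevalonate pathway (Acat2, Hmgcs1, Mvk, Pmvk, Mvd, Idi1 and Fdps) and 11 that carry the product on to cholesterol (Fdft1, Sqle, Lss, Cyp51, Tm7sf2, Msmo1, Nsdhl, Hsd17b7, Ebp, Sc5d and Dhcr7). It holds 5 genes of control and sterol transport (Srebf1, Srebf2, Scap, Insig1 and Stard4) and 9 of fatty acid synthesis (Acly, Acss2, Acaca, Fasn, Scd1, Scd2, Elovl6, Fads1 and Fads2). The 18 genes of the mevalonate and cholesterol steps are called sterol enzymes below.

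All ILC2s came from lungs of wild-type female C57BL/6 mice of 4 to 8 weeks of age, and each library pooled cells of 5 mice. The naïve library held ILC2s of naïve mice, sequenced without culture. The ta-non-activated libraries held tumour-associated ILC2s (ta-ILC2s), also uncultured, from mice that carried a subcutaneous TC1 tumour, 1 library from week 2 and 1 from week 3 after tumour cells were given. The ta-activated libraries held ta-ILC2s of the same 2 weeks that were then kept in culture for a week with rhIL-2, rmIL-33 and TSLP. Activation and time in culture therefore cannot be told apart. No library of cultured naïve ILC2s was analysed.

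Cells build cholesterol and fatty acids from acetyl-CoA. The mevalonate pathway joins acetyl units into isoprenoids, which are condensed to squalene, closed into lanosterol and trimmed to cholesterol. Carboxylation of acetyl-CoA and its repeated condensation give palmitate, which is then elongated and desaturated. Both branches are under the SREBP transcription factors, encoded by Srebf1 and Srebf2, which are released from the endoplasmic reticulum by Scap when sterols are low and held there by Insig1 when sterols are high. Proliferating lymphocytes are known to raise this programme to make membranes.

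Barcodes with at least 200 detected genes and under 5% mitochondrial counts were kept, which left 1601 to 6389 barcodes and 9394957 to 61830293 unique molecular identifiers (UMIs) per library. A pair of libraries shared between 1 and 11 barcodes. The 10 ILC2 marker genes were all detected in every library, and their summed level was 7974 to 11733 CPM (UMIs scaled to 1000000 UMIs per library) in 4 libraries but 1656 CPM in ta-non-activated ILC2s of week 3. Il13 alone gave 8861 CPM of the sum in week 2 ta-non-activated ILC2s and 19.6 CPM in week 3. Il5, Gata3, Areg and Id2 were also lower in week 3 than in week 2, whereas Il1rl1, Rora, Il7r, Thy1 and Klrg1 were higher. The week 3 ta-non-activated library stood apart in its T-lineage transcripts. T-lineage transcripts (Cd3d, Cd3e, Trac, Trdc, Lef1, Tcf7, Ptcra, Themis and Cd8b1) summed to 2111 CPM there against 10.3 to 286 CPM elsewhere, although the sort excluded cells stained for CD3. Barcodes with UMIs of at least 2 of these 9 genes are called T-lineage barcodes, and they made up 905 of 1601 barcodes (56.5%) of the week 3 ta-non-activated library against 12.8% of the naïve library and 1.59% to 4.32% of the other 3. Levels of single genes include them unless said otherwise, and the values of the week 3 ta-non-activated library without them are given after the comparison with naïve ILC2s. In that library Il1rl1 was at 3.26 CPM in T-lineage and 372 CPM in other barcodes, Rora at 28.8 and 1077 CPM, and Gata3 at 78.4 and 591 CPM. Of the 10 ILC2 markers only Thy1 was higher in T-lineage barcodes, at 207 and 160 CPM. The name week 3 ta-non-activated ILC2s follows the label of the library and includes these barcodes. Depth also differed, with a median of 4396 to 16090 UMIs per barcode.

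The promoters of the list were searched for 4 motifs, because SREBP acts together with NF-Y and Sp1 at sterol-regulated genes. Windows from 250 bases before to 50 bases after the start were present for 25 of the 32 genes in the RefSeq table of GRCm38.p6, and Fdps, Fdft1, Sqle, Stard4, Scd1, Scd2 and Fads1 were not among them. The letters TCACNCCAC of an SREBP site were found on either strand in 1 of 25 genes, Hmgcs1, against 1.44% of all 27025 genes in the table. The NF-Y letters CCAAT were present in 20 of 25 (80%), against 41.1% of all genes and 42.5% of the 7138 genes in the table that reached 10 CPM in any library. The Sp1 letters GGGCGG were present in 21 of 25 (84%), against 38.2% and 71.1%, and the E-box CACGTG in 5 of 25 (20%), against 8.09% and 12.3%. A match of letters is a description of the window and does not show that a factor binds there.

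The stretch of the Hmgcs1 promoter with the SREBP letters, and stretches around the CCAAT letters nearest the start in 6 sterol enzymes, are shown 5′ to 3′ on the strand of the gene. Of the sterol enzymes with such letters before the start, these 6 had the widest range of level over the libraries, and they were chosen with those levels known. The start is that of the RefSeq window, whereas gene positions given below come from GENCODE, and by these the Idi1 and Msmo1 stretches lie inside the gene. Capitals mark the matched letters, and ATTGG is CCAAT read on the opposite strand.
Hmgcs1 (chr13:119690189-119690247, plus strand, SREBP letters starting 137 bases before the start): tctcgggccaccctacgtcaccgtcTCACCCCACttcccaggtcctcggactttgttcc
Hmgcs1 (chr13:119690281-119690335, plus strand): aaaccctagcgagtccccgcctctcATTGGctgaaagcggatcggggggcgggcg
Idi1 (chr13:8885567-8885605, plus strand): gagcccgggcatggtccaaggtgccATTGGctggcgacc
Msmo1 (chr8:64733604-64733658, minus strand): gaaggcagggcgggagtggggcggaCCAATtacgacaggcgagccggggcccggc
Mvd (chr8:122443423-122443474, minus strand): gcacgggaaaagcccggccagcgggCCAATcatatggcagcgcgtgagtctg
Lss (chr10:76531518-76531572, plus strand): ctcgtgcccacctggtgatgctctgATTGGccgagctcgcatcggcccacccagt
Pmvk (chr3:89454380-89454434, plus strand): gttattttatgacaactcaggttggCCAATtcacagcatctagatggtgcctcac

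The summed level of the 32 genes differed between the 3 groups and was highest in the cultured cells. It was 564 CPM in naïve ILC2s, 885 and 942 CPM in ta-non-activated ILC2s of weeks 2 and 3, and 1811 and 1972 CPM in ta-activated ILC2s. The ta-activated levels were thus 2.05-fold the ta-non-activated level of the same week in week 2 and 2.09-fold in week 3, and the ta-activated libraries differed from each other by less than the ta-activated and ta-non-activated libraries did. Exact Poisson 95% intervals were narrow, from 556 to 573 CPM in the naïve library, and cover counting error only. There was 1 naïve library, so no test was made against it. In sums over barcodes, fewer cells that express a gene and less RNA of it per cell cannot be told apart. The comparisons with naïve and with ta-activated ILC2s share the ta-non-activated libraries. CPM here are counts of tagged 3′ ends, so no scaling by transcript length was made.

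**Figure D1:**
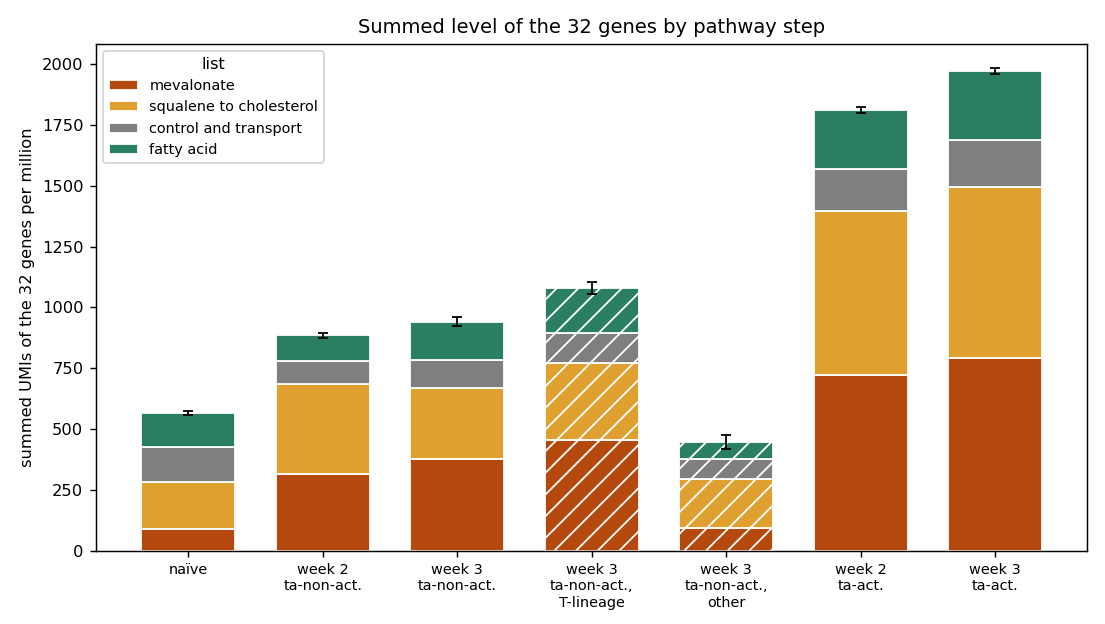
Stacked bars give the summed CPM of the 4 lists, in the 5 libraries and, hatched, in the T-lineage and other barcodes of the week 3 ta-non-activated library, with the exact Poisson 95% interval of the total. The ta-activated bars reach 1811 and 1972 CPM, the naïve bar 564 CPM, and the week 3 ta-non-activated bar of 942 CPM separates into 1079 CPM in T-lineage and 445 CPM in other barcodes.

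The make-up of the sum also differed. Sterol enzymes gave 49.7% of the UMIs of the list in naïve ILC2s and 71.0% to 77.3% in the 4 tumour libraries. Mevalonate genes alone were at 87.4 CPM in naïve, 314 and 378 CPM in ta-non-activated, and 722 and 791 CPM in ta-activated ILC2s. The 11 later sterol enzymes were at 193 CPM, then 370.1 and 290.3 CPM, then 676 and 702 CPM. Fatty acid genes were at 139 CPM in naïve ILC2s and 105 and 159.7 CPM in ta-non-activated ILC2s, so the groups overlapped, and at 241 and 285 CPM in ta-activated ILC2s. Genes of control and transport showed the smallest range, from 96.3 CPM in week 2 ta-non-activated to 194 CPM in week 3 ta-activated ILC2s, with 145 CPM in naïve ILC2s.

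**Figure D2:**
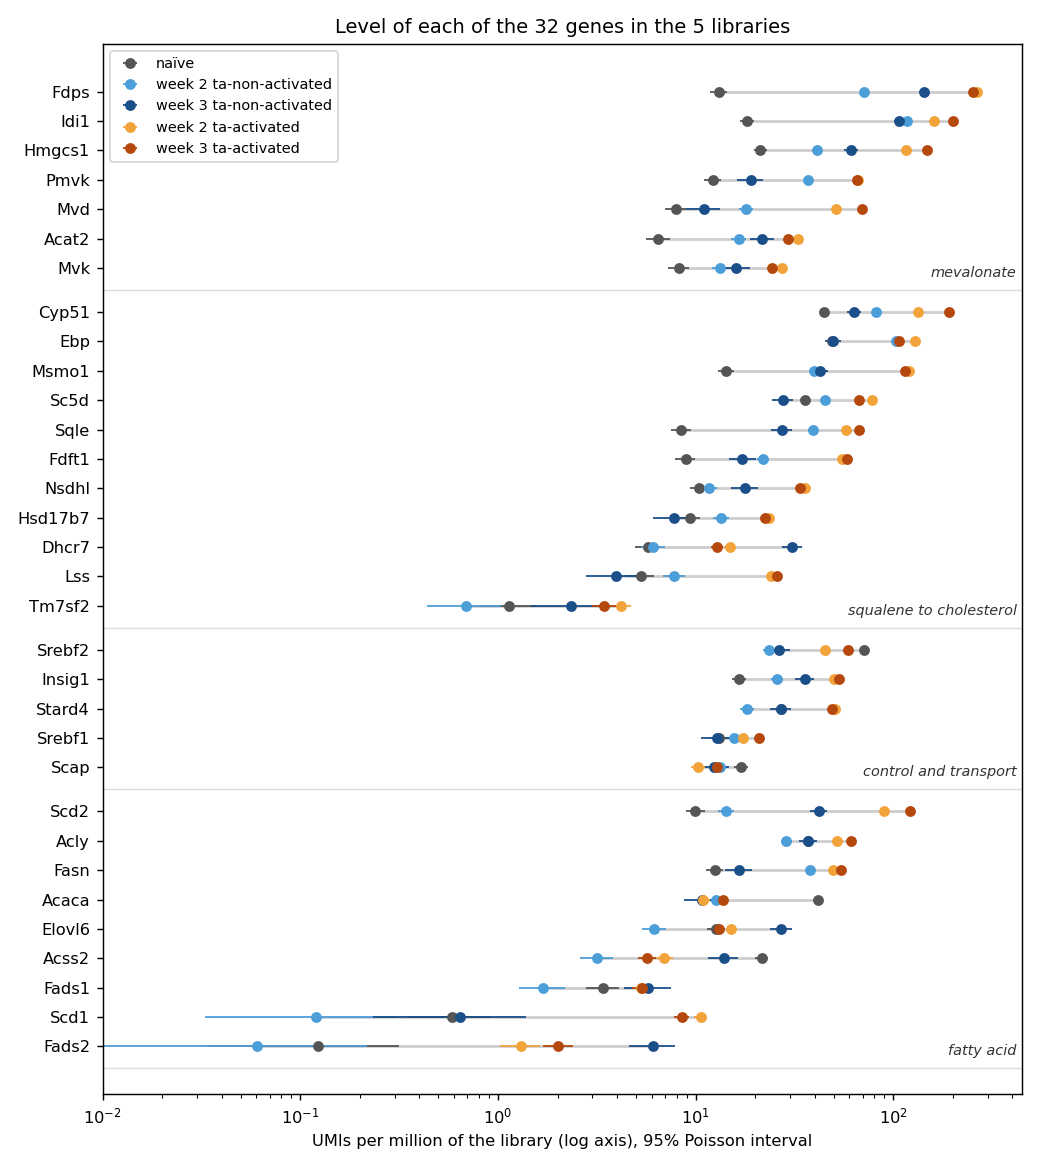
Each row is a gene and each point a library, on a logarithmic axis of CPM with exact Poisson 95% intervals, grouped by pathway list and ordered by mean level. In most rows of the mevalonate and cholesterol lists the 2 ta-activated points lie to the right and the naïve point to the left, whereas Srebf2 and Acaca have the naïve point farthest right.

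In the mevalonate list, all 7 genes were higher in both ta-activated libraries than in the 3 libraries of uncultured cells. Over the 9118 genes with at least 10 CPM in any library, 15.7% showed this order. Fdps (farnesyl diphosphate synthase, chr3:89093588-89101959 of GRCm38, minus strand) had the highest mean level of the 32 genes. It stood at 13.1 CPM in naïve ILC2s, 70.7 and 142 CPM in ta-non-activated ILC2s, and 266 and 253 CPM in ta-activated ILC2s. Idi1 (chr13:8885501-8892451, plus strand) isomerises isopentenyl diphosphate, the unit from which Fdps builds its product. Its levels were 18.2 CPM in naïve ILC2s, 117 and 107 CPM in ta-non-activated ILC2s, and 161 and 201 CPM in ta-activated ILC2s. Idi1 therefore differed more between naïve and ta-non-activated ILC2s than between ta-non-activated and ta-activated ILC2s in week 2. In week 3 this order held only with T-lineage barcodes, since Idi1 without them was at 14.8 CPM in ta-non-activated, 17.0 CPM in naïve and 199 CPM in ta-activated ILC2s. Hmgcs1 (chr13:119690379-119708260, plus strand), which makes HMG-CoA and carries the SREBP letters shown above, had 21.2 CPM in naïve ILC2s. It had 41.1 and 61.0 CPM in ta-non-activated ILC2s and 116 and 149 CPM in ta-activated ILC2s.

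Pmvk, the kinase that adds the second phosphate to mevalonate, was at 12.2 CPM in naïve ILC2s, 37.1 and 18.9 CPM in ta-non-activated ILC2s, and 66.5 and 65.5 CPM in ta-activated ILC2s. Mvd decarboxylates the product of Pmvk, and its levels were 7.93 CPM, then 17.9 and 11.0 CPM, then 51.3 and 69.1 CPM. Acat2, which joins acetyl units at the head of the pathway, had 6.48 CPM in naïve ILC2s, 16.5 and 21.7 CPM in ta-non-activated ILC2s, and 32.99 and 29.2 CPM in ta-activated ILC2s. Mvk, the mevalonate kinase, ranged from 8.24 CPM in naïve to 27.5 CPM in week 2 ta-activated ILC2s. The order of the groups was thus naïve, ta-non-activated, ta-activated for each of the 7 genes. Without T-lineage barcodes Acat2, Hmgcs1, Mvd and Idi1 of week 3 ta-non-activated ILC2s lay below naïve ILC2s, at 5.41, 16.7, 7.38 and 14.8 CPM against 6.05, 17.6, 7.89 and 17.0 CPM. These week 3 levels rest on 11, 34, 15 and 30 UMIs, and the Poisson interval of each held the naïve level.

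Of the 11 later sterol enzymes, 10 were higher in both ta-activated libraries than in the 3 others. The same order held for 15.7% of the 9118 genes with at least 10 CPM in any library, a level that Tm7sf2 did not reach. Cyp51 (lanosterol demethylase, chr5:4081145-4104746, minus strand) led this list, with 44.7 CPM in naïve ILC2s, 81.3 and 63.4 CPM in ta-non-activated ILC2s, and 133 and 190.4 CPM in ta-activated ILC2s. Msmo1 (chr8:64718139-64733792, minus strand) oxidises the methyl groups that are next removed. It stood at 14.3 CPM in naïve ILC2s, 39.5 and 42.6 CPM in ta-non-activated ILC2s, and 120.4 and 115 CPM in ta-activated ILC2s. Ebp, a sterol isomerase, was at 48.8 CPM in naïve ILC2s, 103 and 49.6 CPM in ta-non-activated ILC2s, and 129 and 107 CPM in ta-activated ILC2s. The week 2 ta-non-activated level of Ebp thus lay next to the ta-activated levels and the week 3 level next to the naïve level.

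Sqle, squalene epoxidase, had 8.46 CPM in naïve ILC2s, 39.1 and 27.2 CPM in ta-non-activated ILC2s, and 57.8 and 66.9 CPM in ta-activated ILC2s. Fdft1, squalene synthase, had 8.89 CPM, then 21.9 and 17.2 CPM, then 54.8 and 58.1 CPM. Lss, which closes the squalene chain to lanosterol, showed no step between naïve (5.28 CPM) and ta-non-activated ILC2s (7.79 and 3.94 CPM) and was at 24.0 and 25.7 CPM in ta-activated ILC2s. Nsdhl, Hsd17b7 and Sc5d were each highest in the ta-activated libraries and ranged from 7.77 to 78.1 CPM. Dhcr7, the last reductase of the pathway, was highest in week 3 ta-non-activated ILC2s at 30.8 CPM, against 5.71 CPM in naïve, 6.08 CPM in week 2 ta-non-activated, and 14.9 and 12.8 CPM in ta-activated ILC2s. Tm7sf2, another sterol reductase, was near the limit of detection at 0.69 to 4.17 CPM.

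The genes of control and transport did not share 1 order. Srebf2 (chr15:82147181-82205379, plus strand), which encodes the SREBP most tied to cholesterol genes, was highest in naïve ILC2s at 71.2 CPM. It had 23.4 and 26.4 CPM in ta-non-activated ILC2s and 45.1 and 58.8 CPM in ta-activated ILC2s. Its order over the 3 groups therefore differed from that of the sterol enzymes. Insig1, itself a known SREBP target, had 16.6 CPM in naïve, 25.8 and 35.6 CPM in ta-non-activated, and 49.95 and 52.9 CPM in ta-activated ILC2s, an order like that of the enzymes. Stard4, a cytosolic sterol carrier, had 27.0 CPM in naïve, 18.1 and 26.9 CPM in ta-non-activated, and 50.6 and 48.7 CPM in ta-activated ILC2s. Scap ranged from 10.3 to 17.0 CPM and Srebf1 from 12.8 to 20.9 CPM.

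Fatty acid genes were divided. Scd2 (stearoyl-CoA desaturase 2, chr19:44293674-44306864, plus strand) had the highest mean level of the 9. It was at 9.97 CPM in naïve ILC2s, 14.3 and 41.9 CPM in ta-non-activated ILC2s, and 89.4 and 122 CPM in ta-activated ILC2s. Its neighbour Scd1 (chr19:44394455-44407879, minus strand) was nearly absent from uncultured cells, with 19 UMIs (0.59 CPM) in naïve, and 4 and 6 UMIs (0.12 and 0.64 CPM) in ta-non-activated ILC2s. Ta-activated ILC2s held 607 and 525 Scd1 UMIs (10.6 and 8.49 CPM). Scd1 and Scd2 are close paralogs, so the way the authors' counting divided reads between them is uncertain.

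Acly, which makes cytosolic acetyl-CoA from citrate, was at 37.0 CPM in naïve, 28.7 and 37.1 CPM in ta-non-activated, and 52.1 and 61.0 CPM in ta-activated ILC2s. Fasn, fatty acid synthase, was at 12.5 CPM, then 37.9 and 16.5 CPM, then 49.3 and 54.2 CPM. Acaca (chr11:84129672-84401651, plus strand), the carboxylase that commits acetyl-CoA to fatty acids, was highest in naïve ILC2s at 41.4 CPM and between 10.8 and 13.7 CPM in the 4 tumour libraries. Acly and Fasn, on either side of Acaca in the pathway, did not show this order. Acss2, which makes acetyl-CoA from acetate, was likewise highest in naïve ILC2s at 21.6 CPM, with 3.16 and 13.8 CPM in ta-non-activated and 6.92 and 5.66 CPM in ta-activated ILC2s. The elongase Elovl6 was highest in week 3 ta-non-activated ILC2s at 27.0 CPM, against 6.17 to 15.2 CPM elsewhere. The desaturases Fads1 and Fads2 were low. Fads1 was at 3.40 CPM in naïve, 1.69 and 5.75 CPM in ta-non-activated, and 5.32 and 5.32 CPM in ta-activated ILC2s, and Fads2 at 0.12 CPM, then 0.06 and 6.07 CPM, then 1.31 and 2.02 CPM.

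The question whether freshly isolated ta-ILC2s differ from naïve ILC2s in these genes rests on 1 library against 1 library in each week. Among genes with at least 10 CPM in either library, 10 of 26 list genes were at least 2-fold higher in week 2 ta-non-activated than in naïve ILC2s, against 22.2% of all 8326 such genes, and 4 were at least 2-fold lower, against 35.6%. In week 3, 10 of 26 were higher, against 20.3% of 8529 genes, and 2 were lower, against 29.6%. The median log2 ratio of the list was 0.66 in week 2 and 0.70 in week 3, and that of all genes was -0.26 and -0.11. For the sterol enzymes the medians were 1.17 and 0.96. Genes at least 2-fold above naïve in both weeks were Fdps, Idi1, Acat2, Msmo1 and Sqle, and those at least 2-fold below were Srebf2 and Acaca. In all 4 tumour libraries 17 of 29 genes with at least 10 CPM in any library were above the naïve level, against 28.7% of 9118 genes, and Srebf2, Scap, Acss2 and Acaca were below it, against 34.9%. Without T-lineage barcodes 8 of 28 genes (Mvk, Pmvk, Fdps, Sqle, Nsdhl, Ebp, Sc5d and Insig1) were above naïve in all 4, against 24.6% of 8839 genes, and Srebf2, Scap and Acaca were below, against 34.9%. Scaling by trimmed means of M values (TMM) in place of total counts raised all log2 ratios to naïve by 0.33 in week 2 and 0.11 in week 3, and changed the sign for Srebf1 and Stard4 in week 3 only.

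Intron length moved with the ratio to naïve over the whole transcriptome. In the matrix headers, Cell Ranger 6.0.0 is named for naïve ILC2s and 3.0.2 for the other 4 libraries. Over 8991 genes, Spearman's rho between intron bases and the log2 ratio to naïve was -0.53 to -0.55 in the 4 tumour libraries, and 0.14 for week 2 ta-activated over ta-non-activated. These are correlations across genes, which are not independent replicates. The 4 list genes below naïve in all tumour libraries had 44220 to 254906 intron bases, and the 17 above had 3446 to 37105. Among genes with fewer than the median of 20100 intron bases, the median log2 ratio of week 2 ta-non-activated to naïve was 0.53 over all 4495 genes and 1.08 over 15 sterol enzymes. In week 3 these medians were 0.52 and 0.96, and for the ta-activated libraries they were 0.49 and 2.35 in week 2 and 0.52 and 2.28 in week 3. Among the 4496 genes at or above the median intron length, the median log2 ratio to naïve was -1.11 and -0.88 in ta-non-activated ILC2s of weeks 2 and 3. In the ta-activated libraries it was -0.81 and -0.62. Srebf2, Scap, Acss2 and Acaca were at -1.60, -0.36, -2.77 and -1.71 in week 2 ta-non-activated ILC2s. The list had a median of 13650 intron bases, and the shares over all genes were not matched for length. The part of intron length in the levels of these 4 genes, or of those above naïve, was not tested.

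**Figure D3:**
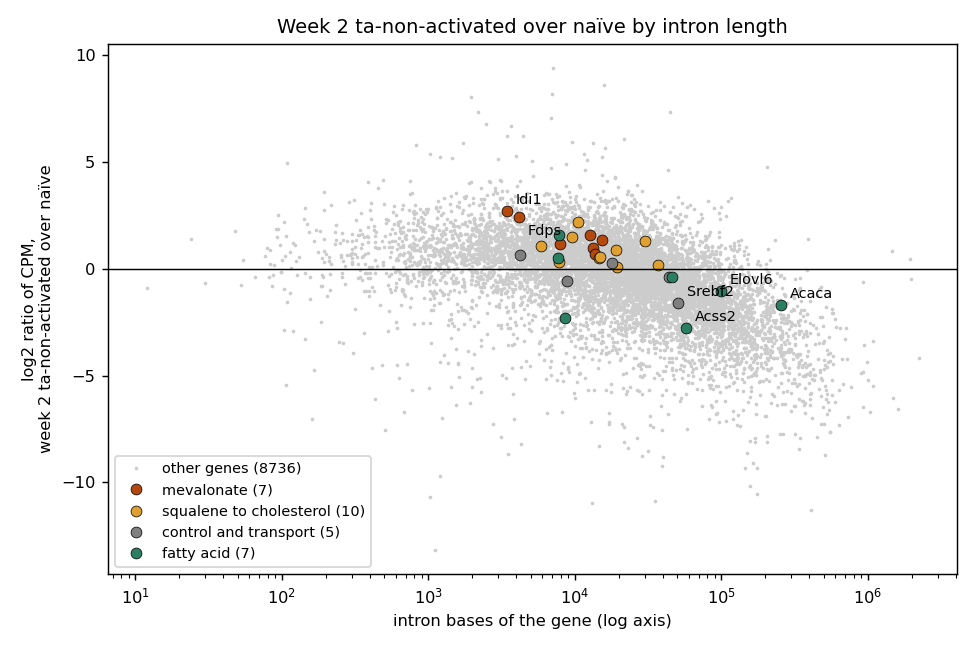
Each point is a gene, with its intron bases on a logarithmic axis and its log2 ratio of CPM in week 2 ta-non-activated over naïve ILC2s, in grey for 8736 other genes and in colour for the 29 list genes drawn (226 genes without introns are left out). The cloud falls from left to right, Idi1 and Fdps lie at its upper left among the short genes, and Acss2, Srebf2, Elovl6 and Acaca lie below 0 at its right.

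The week 3 ta-non-activated level came mostly from T-lineage barcodes. They held 78.4% of the UMIs of that library and 89.8% of the UMIs of the 32 genes. The summed level was 1079 CPM in T-lineage and 445 CPM in the other 696 barcodes, and that of the mevalonate list was 456 and 93.5 CPM. In these single sets of barcodes, 12 of 26 list genes were at least 2-fold higher in T-lineage barcodes, against 25.9% of 7902 genes. Fdps was at 176 and 21.7 CPM, Idi1 at 133 and 14.8 CPM, and Scd2 at 52.8 and 2.46 CPM, the last from 5 UMIs. Dhcr7 and Elovl6, of which this library had the highest level of the 5, were at 37.8 and 5.41 CPM and at 33.4 and 3.94 CPM. Fads1 and Fads2, also highest in this library, were at 6.79 and 1.97 CPM and at 7.61 and 0.49 CPM. Their levels in other barcodes rest on 4 and 1 UMIs. Sc5d went the other way, with 22.1 and 47.7 CPM. T-lineage barcodes were deeper, with a median of 6174 against 2764 UMIs, so the gate was also set after thinning each barcode to 2000 UMIs. With that gate, Cd3d was still at 120 CPM among the other barcodes, against 6.4 CPM with the first gate.

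Whether week 3 ta-non-activated ILC2s lay above naïve ILC2s without T-lineage barcodes depended on the gate. With the first gate their summed level was 445 CPM against 548 CPM in naïve, 886 CPM in week 2 ta-non-activated, and 1788 and 1951 CPM in ta-activated ILC2s. Relative to naïve, 0 of 20 list genes were then at least 2-fold higher, against 3.38% of 7890 genes, and 4 were at least 2-fold lower, against 26.8%. The median log2 ratio was -0.20 for the list, 0.27 for 10 sterol enzymes and -0.25 for all genes. The lists were at 93.5 CPM for mevalonate genes, 199.8 CPM for later sterol enzymes, 83.7 CPM for control and transport, and 68.4 CPM for fatty acid genes, against 81.9, 192, 139.8 and 134 CPM in naïve ILC2s. Fdps was at 21.7 CPM against 12.9 CPM in naïve and 70.9 CPM in week 2, and Idi1 at 14.8 CPM against 17.0 and 117 CPM. The type 2 cytokine transcript Il13 was at 82.2 CPM in these barcodes, against 61.7 CPM in naïve and 8910 CPM in week 2 ta-non-activated ILC2s. Pmvk was at 18.2 CPM, Mvd at 7.38 CPM, Cyp51 at 37.9 CPM, Msmo1 at 9.84 CPM, Sqle at 10.8 CPM, Ebp at 55.1 CPM, Insig1 at 19.2 CPM and Fasn at 5.91 CPM, each below its level with T-lineage barcodes except Ebp. With the gate at equal depth the sum was 664 CPM against 557 CPM in naïve ILC2s (1.19-fold), the sterol enzymes were 1.64-fold and the mevalonate genes 2.58-fold the naïve level. The excess of week 3 over naïve ILC2s thus depended on which barcodes were set aside, and that of week 2 did not. The week 2 library had 29 T-lineage barcodes of 1823, and its level was 885 CPM with and 886 CPM without them.

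The comparison of ta-activated with ta-non-activated ILC2s asks what activation in culture changes, and it had 2 libraries in each group. In week 2, 14 of 28 list genes were at least 2-fold higher in ta-activated ILC2s, against 16.5% of 7532 genes, and 0 were at least 2-fold lower, against 11.1%. In week 3, 14 of 28 were higher, against 19.9% of 8189 genes, and Dhcr7, Acss2 and Elovl6 were lower, against 17.2%. The genes past 2-fold in both weeks were Hmgcs1, Mvd, Msmo1, Fdft1, Lss and Scd2. The medians of the log2 ratio were 0.98 and 1.02 for the list and 0.06 and 0.01 for all genes. Over the 5 libraries, 23 of 29 genes were higher in both ta-activated libraries than in all 3 uncultured libraries, against 15.7% of 9118 genes, and 0 were lower in both, against 10.8%. Without T-lineage barcodes 24 of 28 were higher in both, against 18.2% of 8839 genes. Between the ta-activated libraries, 0 of 28 genes were at least 2-fold higher and 0 of 28 at least 2-fold lower in week 3, against 3.35% and 2.50% of 7554 genes. Without T-lineage barcodes the difference in week 3 was larger, at 4.38-fold for the sum (2.98-fold with the gate at equal depth), and 22 of 28 genes were at least 2-fold higher, against 23.4% of 7869 genes.

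**Figure D4:**
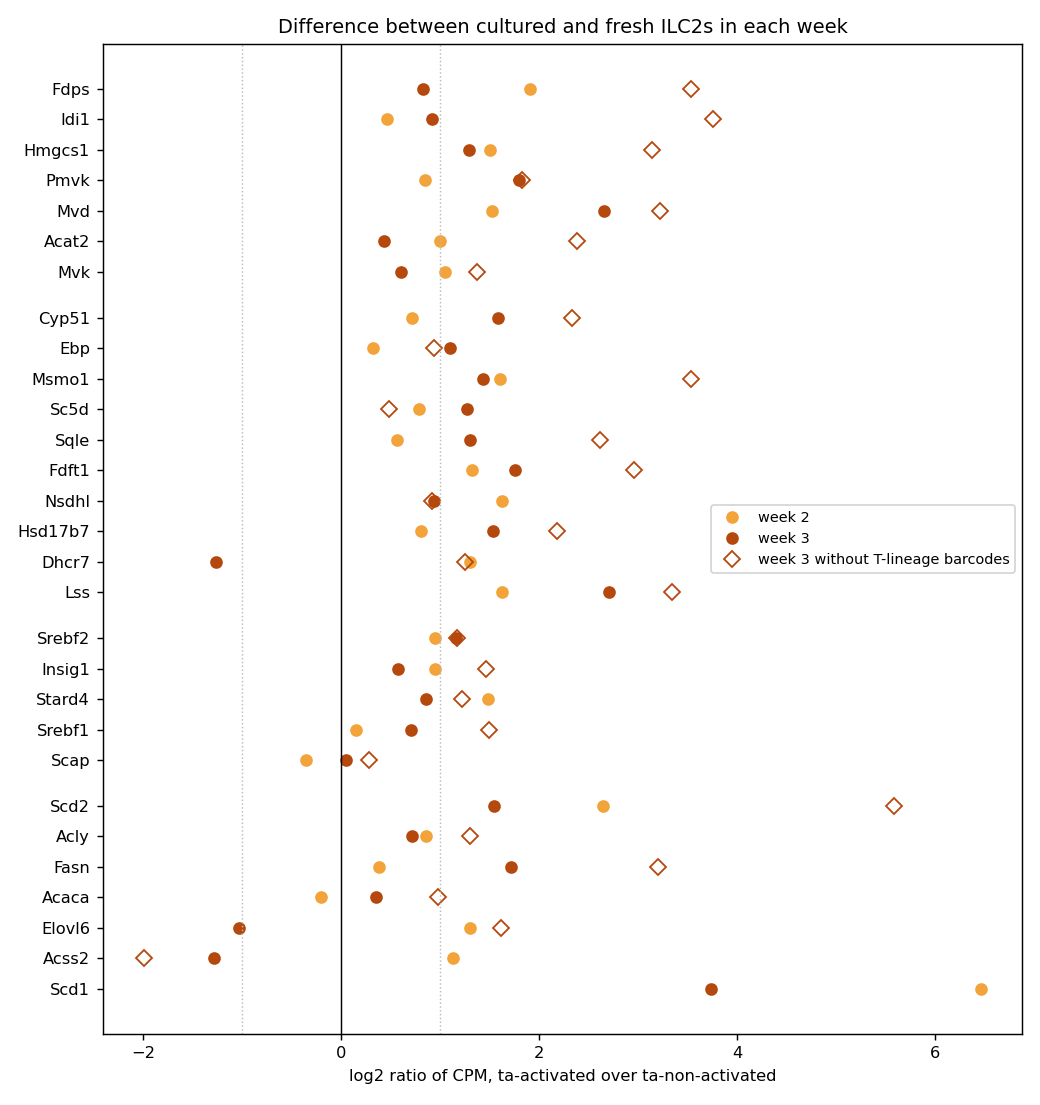
Rows are the list genes with at least 10 CPM in any library, and points give the log2 ratio of CPM in ta-activated over ta-non-activated ILC2s in week 2, in week 3, and in week 3 without T-lineage barcodes (open diamonds, left out where 3 or fewer UMIs remained). Most points lie right of 0 and the diamonds of Fdps, Idi1, Hmgcs1, Msmo1 and Scd2 lie beyond 3, whereas Dhcr7 and Elovl6 lie left of 0 in week 3 and right of 0 once T-lineage barcodes are removed by the first gate.

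No gene passed the threshold in the replicated test. The quasi-likelihood F test of edgeR called 0 of 12643 genes (0%) at an adjusted p under 0.05, and 0 of 32 list genes. At an unadjusted p under 0.05 it marked 2120 genes, of which 1178 (9.32% of those tested) were higher in ta-activated ILC2s. Of the list, 11 genes were marked, all of them higher in ta-activated ILC2s. The fold changes of the list were positive for 26 of 32 genes, with a median log2 fold change of 0.81 against -0.02 over all genes. The list genes with the lowest p were Scd1, with a log2 fold change of 4.83 ± 0.84 (SE), Msmo1 with 1.42 ± 0.32, and Mvd with 1.91 ± 0.46, at adjusted p values of 0.243, 0.243 and 0.247 by edgeR. Fdft1 (1.40 ± 0.37), Hmgcs1 (1.29 ± 0.34), Lss (1.92 ± 0.53), Nsdhl (1.18 ± 0.33), Scd2 (1.87 ± 0.54), Stard4 (1.06 ± 0.32), Fdps (1.23 ± 0.40) and Srebf2 (0.96 ± 0.32) were the others under 0.05 before adjustment. DESeq2 on the same counts called 1037 genes, 574 of them higher (4.54%), and 7 list genes, namely Hmgcs1, Mvd, Fdft1, Lss, Msmo1, Scd1 and Scd2. Without T-lineage barcodes edgeR called 0 of 12483 genes, and at an unadjusted p under 0.05 it marked 1474, of which 995 (7.97%) were higher in ta-activated ILC2s, and 14 list genes. The list then had 30 positive fold changes and a median of 1.11. Leaving out a library left 1 library in its group. The median log2 fold change of the list was 0.99 without week 2 and 0.82 without week 3 ta-non-activated ILC2s. It was 0.90 without week 2 and 0.80 without week 3 ta-activated ILC2s. P-values here measure the spread between 2 libraries of different weeks, and whether the libraries came from separate groups of mice is not stated in the labels.

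Cycling barcodes carried more of these transcripts than non-cycling barcodes of the same library. A barcode was called cycling when at least 2 of 12 cell-cycle genes such as Mki67 and Top2a were detected in it after thinning to 2000 UMIs, and non-cycling when none was. None of the 12 is in the list. Cycling barcodes numbered 43 in naïve, 156 and 179 in ta-non-activated, and 676 and 653 in ta-activated ILC2s. The summed level of the 32 genes was 734 CPM in cycling and 556 CPM in non-cycling naïve barcodes. In ta-non-activated ILC2s it was 1256 and 811 CPM in week 2 and 1089 and 865 CPM in week 3. In ta-activated ILC2s it was 2294 and 1466 CPM in week 2 and 2458 and 1742 CPM in week 3. The sum was thus higher in cycling barcodes in 5 of 5 libraries. In week 3 ta-non-activated ILC2s, however, 173 of 179 cycling and 621 of 1178 non-cycling barcodes were T-lineage barcodes. T-lineage barcodes of that library had 2.42-fold the summed level of its other barcodes, so its difference mixes cycling with T-lineage make-up. Cycling and non-cycling barcodes are not compared here within its T-lineage barcodes. The non-cycling ta-activated barcodes were still above the cycling barcodes of every uncultured library.

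With the library as a block, edgeR called 2060 of 11444 genes between cycling and non-cycling barcodes, 1140 of them higher in cycling barcodes (9.96%) and 920 lower (8.04%). Of the 32 list genes 11 were called, all higher in cycling barcodes, and the median log2 fold change was 0.44 for the list and -0.11 for all genes. Of the 7 mevalonate genes 5 were called. Fdps rose by a log2 fold change of 0.89 ± 0.13 (SE, adjusted p = 0.0026 by edgeR), from 203 to 355 CPM in week 3 ta-activated and from 12.8 to 30.4 CPM in naïve ILC2s. Acat2 rose by 1.10 ± 0.20, Pmvk by 0.68 ± 0.11, Idi1 by 0.65 ± 0.12 and Hmgcs1 by 0.50 ± 0.12. Of the 11 later sterol enzymes only Fdft1 was called, at 0.52 ± 0.14, and Msmo1 and Sc5d had values of -0.06 ± 0.18 and -0.08 ± 0.17. Whether the mevalonate and later steps differed in this respect was not tested.

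Stard4 rose in cycling barcodes by 0.76 ± 0.13 and was the only gene of control and transport called. Among fatty acid genes Acly rose by 0.39 ± 0.11 and the low genes Scd1, Fads1 and Fads2 by 1.42 ± 0.27, 1.64 ± 0.37 and 1.64 ± 0.46. Scd1 and Fads2 had 0 UMIs in cycling naïve barcodes. Fads2 was called in none of the fits that left out a library. In the ta-activated libraries Scd1 was at 17.2 and 17.1 CPM in cycling and 5.90 and 4.91 CPM in non-cycling barcodes. Acss2 was lower in cycling barcodes in 5 of 5 libraries, at -0.63 ± 0.22, and was not called (adjusted p = 0.081 by edgeR). Fdps, Pmvk and Stard4 were called whichever library was left out. Idi1 was called in 4 of these 5 fits, Acat2 and Scd1 in 3, Fdft1 and Fads1 in 2, and Hmgcs1 and Acly in 1. The number of list genes called fell to 3 and 4 without the week 2 or week 3 ta-activated library and to 6 without week 2 ta-non-activated ILC2s, and it was 0 without the block for the library. Over all genes the calls in these fits were 709, 783, 1759 and 257.

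**Figure D5:**
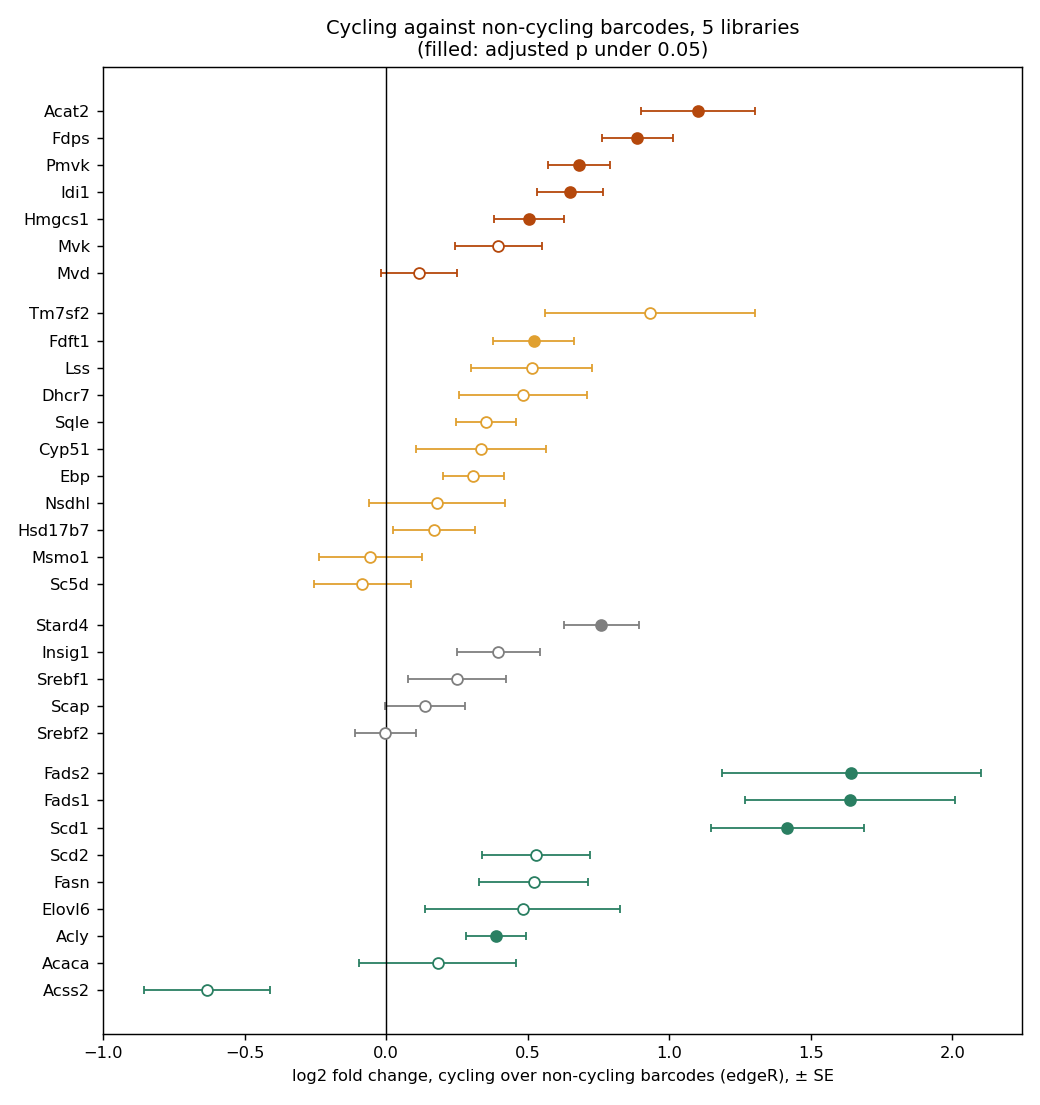
Points give the log2 fold change of each of the 32 genes in cycling over non-cycling barcodes with its standard error, from edgeR over 5 libraries with the library as a block, filled where the adjusted p was under 0.05. The 11 filled points all lie right of 0, and only Acss2, Msmo1, Sc5d and Srebf2 lie left of it.

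Depth and ILC2 markers moved with the cycling class, and so did T-lineage make-up in the week 3 ta-non-activated library. With the library as a block, the 6 T-lineage genes tested had a median log2 fold change of -0.40 in cycling barcodes. Of these 6 genes 2 were above 0, 1 was called lower and 0 were called higher. The 10 ILC2 markers had a median log2 fold change of -1.20 in cycling barcodes, with 9 of 10 below 0, 6 at an unadjusted p under 0.05 and 2 called lower, and their part in the levels of the 32 genes was not tested. Cycling barcodes were deeper, with medians of 11033 to 28298 UMIs against 4060 to 14756 UMIs. When the thinned counts were compared 5 of 27 list genes tested were called, all higher, namely Acat2, Pmvk, Idi1, Fdps and Stard4. Over all genes that fit called 1507 of 8644, with 768 of them higher. In the week 3 ta-non-activated library 173 of 179 cycling barcodes were T-lineage barcodes, and there the later sterol enzymes were lower in cycling barcodes (264 against 305 CPM), unlike in the other 4 libraries. Without T-lineage barcodes that library had too few cycling barcodes to enter, and 15 of 31 list genes were called over the other 4, all higher. Over all genes that fit called 2372 of 11551, with 1217 of them higher.

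Single barcodes held few of these transcripts. Among barcodes thinned to 2000 UMIs the mean number of UMIs of the 32 genes was 1.10 in naïve, 1.54 and 1.59 in ta-non-activated, and 2.93 and 3.28 in ta-activated ILC2s. The variance over the mean, which is 1 for counting noise alone, was 1.31 in naïve, 1.56 and 1.83 in ta-non-activated, and 2.54 and 2.53 in ta-activated ILC2s. The ratio was thus above 1 in every library and highest in the cultured ones, where the mean was also highest. At an equal relative spread between cells this ratio rises with the mean, so it does not rank the libraries by how uneven their cells were. Barcodes of a library are not replicates, and these figures describe each library.

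Genes of 6 further lists near the pathway were also compared between ta-activated and ta-non-activated ILC2s. None of them was called, since edgeR called 0 genes over the whole transcriptome, and the median log2 fold changes ran from -0.77 for the prenyl and dolichol branch to 0.89 for lipid droplets and triglyceride. In the prenyl branch Coq2, a coenzyme Q enzyme, was at 46.1 and 47.3 CPM in ta-non-activated and 21.7 and 17.0 CPM in ta-activated ILC2s, and Rabggta at 12.2 and 15.9 against 9.12 and 8.36 CPM. In the lipid droplet list Plin3, a droplet coat protein, was at 16.7 and 38.0 CPM in ta-non-activated and 139 and 136 CPM in ta-activated ILC2s. Lpin1, a phosphatidate phosphatase, was at 6.86 and 5.64 against 28.4 and 38.3 CPM. Among further fatty acid enzymes Me1, which supplies NADPH, was at 5.90 and 0.21 against 36.3 and 25.8 CPM, and the mitochondrial reductase Mecr at 54.5 and 28.0 against 11.9 and 9.70 CPM. In fatty acid uptake and oxidation the values were 89.0 and 59.2 against 45.7 and 41.3 CPM for Etfa and 8.58 and 17.6 against 24.3 and 22.3 CPM for Cpt1a.

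The further lists were also compared between cycling and non-cycling barcodes, where 8.04% of all tested genes were called lower and 9.96% higher. Of 7 tested genes of sterol efflux, storage and LXR, 5 fell in cycling barcodes and 0 rose, with a median log2 fold change of -0.59 against -0.11 over all genes. Abca1 and Abcg1, which export cholesterol, fell by 1.73 ± 0.31 (SE, adjusted p = 0.0077 by edgeR) and 1.13 ± 0.18 on the log2 scale. Npc2, a lysosomal cholesterol carrier, Mylip, a ubiquitin ligase, and Nr1h2, an LXR receptor, fell by 0.67 ± 0.12, 0.59 ± 0.15 and 0.40 ± 0.11, and Soat1, which esterifies cholesterol for storage, was not called, at -0.37 ± 0.28. In ta-activated against ta-non-activated ILC2s Npc2 and Soat1 were not called, at 0.74 ± 0.48 and -0.64 ± 0.58. Of 9 lipid droplet genes Plin2 and Dgat2 fell by 1.07 ± 0.16 and 1.62 ± 0.27. Of 6 genes of SREBP processing Insig2 fell by 0.42 ± 0.12 and Rnf139, a ubiquitin ligase of the same membrane, by 0.48 ± 0.13, whereas in ta-activated against ta-non-activated ILC2s they had values of 0.87 ± 0.37 and 0.84 ± 0.33 and were not called. Pdss1 of the prenyl branch and Fabp5, a fatty acid binding protein, rose by 1.09 ± 0.28 and 1.25 ± 0.35.

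Transcripts of other lung cells that make lipid were low. The 7 alveolar type 2 markers summed to 62.1 CPM in the naïve library and 1.47 to 4.45 CPM in the others, with Sftpd at 0 in all 4 of these. Macrophage and myeloid markers summed to 0.96 to 15.9 CPM and fibroblast and lipofibroblast markers to 0 to 11.2 CPM, with Marco at 0 in every library. Endothelial markers ranged from 15.7 to 93.7 CPM and B cell markers from 5.03 to 23.3 CPM, and NK markers reached 13.5 CPM. The genes listed for mast cells were Cpa3, Mcpt8, Gata2 and Ms4a2. They summed to 0 CPM in week 2 ta-non-activated, 82.4 CPM in week 3 ta-non-activated, 121 CPM in week 2 ta-activated, and 30.01 and 1.26 CPM in naïve and week 3 ta-activated ILC2s. The 82.4 CPM were nearly all Cpa3 (82.3 CPM) and the 121 CPM nearly all Mcpt8 (120.6 CPM), with Ms4a2 at 0 in every library. Each of these sums rested on a single gene and does not show that mast cells were present. The part of these markers in the levels of the 32 genes was not tested.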

How the data were processed

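Single-cell RNA of sorted lung ILC2s was measured on the 10x Genomics 3′ platform in 5 libraries. The authors aligned reads with Cell Ranger and deposited raw UMI counts per gene and barcode, without normalization. Per the labels the build is GRCm38 and Cell Ranger is 3.0.2, and the header of the naïve matrix names 6.0.0. The gene annotation used for counting is not given in the sources used here. Deposited counts reached 9910201 to 71126524 UMIs per library.

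The 200-gene minimum and the 5% mitochondrial limit were applied to each barcode, and counts were summed per library. CPM are UMIs over all UMIs of the 27726 genes common to the matrices. Intervals are exact Poisson at 95%. No doublet caller was run. Barcodes in the deepest 5% of each library were left out as an alternative. Sums were tested in edgeR 4.0.16 (R 4.3.3) with filterByExpr, TMM, the quasi-likelihood F test and Benjamini-Hochberg adjustment over all genes, at 0.05. Cycling and non-cycling sums were paired by the library they came from. The fits were tested on simulated data with 200 genes changed 4-fold, and recovered 199 of them for ta-activated against ta-non-activated and 200 for cycling against non-cycling. They also called 10 and 7 unchanged genes. The simulated ta-activated and ta-non-activated libraries shared the same mean levels apart from the changed genes. They held no week difference and no library rich in T-lineage barcodes. The recovery therefore does not give the power of the fits on the real libraries. DESeq2 1.42.0 was an alternative. Other work used Python 3.11.15 with numpy 2.4.6, scipy 1.17.1, pandas 2.3.3 and matplotlib 3.10.9. Gene positions and introns came from GENCODE M21 on GRCm38, with 99.7% of identifiers found.

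Members and lists were chosen with earlier results of these data known. Values were given in full for the 3 genes with the highest mean CPM of each list and for those past a test threshold or past 2-fold in both weeks, and for 2 genes of each further list with the largest absolute edgeR fold change in ta-activated against ta-non-activated ILC2s, at a mean of at least 10 CPM. Genes outside this rule were named to account for every member. The test over single cells of the study was not used, since cells of a library are not replicates.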

Additional observations from a re-analysis of the deposited data

Results flagged for a closer look

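Dhcr7, Elovl6 and Sc5d had differences of opposite sign in weeks 2 and 3, past counting error in each week, and the difference between the weeks was not tested since each week had 1 library per group. The log2 ratio of ta-activated over ta-non-activated ILC2s was 1.30 in week 2 and -1.27 in week 3 for Dhcr7, and 1.30 and -1.03 for Elovl6. Elovl6 also differed in sign in ta-non-activated over naïve ILC2s, at -1.04 in week 2 and 1.10 in week 3, as did Sc5d at 0.34 and -0.37. Among ta-non-activated ILC2s of week 3, Dhcr7 and Elovl6 were at 37.8 and 33.4 CPM in T-lineage barcodes and at 5.41 and 3.94 CPM in the others. Without T-lineage barcodes the week 3 ta-activated levels were 12.8 and 12.002 CPM, above these, which rest on 11 and 8 UMIs. With the T-lineage gate at equal depth the ta-non-activated levels were 17.3 and 18.8 CPM, so the sign in week 3 depended on the gate. That gate left more T-lineage transcripts among the other barcodes, with Cd3d at 120 CPM against 6.4 CPM with the first gate. Sc5d was at 22.1 CPM in T-lineage and 47.7 CPM in other barcodes of that library, above the 36.8 CPM of naïve ILC2s without T-lineage barcodes.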

How the results depend on the processing

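The mean over both weeks of the log2 ratio of the summed level stayed above 0 under every alternative tried, but the week 3 ratio to naïve did not. For ta-non-activated over naïve ILC2s the mean log2 ratio was 0.69. It was 0.82 without mitochondrial and ribosomal genes in the total, 0.91 with TMM library sizes, 0.51 as a mean over barcodes, 0.55 without Fdps, 0.59 without cycling barcodes and 0.20 without T-lineage barcodes. For ta-activated over ta-non-activated ILC2s it was 1.05, and 1.01, 0.97, 1.01 and 0.93 under these alternatives (total, barcode mean, without Fdps, without cycling barcodes), 1.002 over all deposited barcodes, 0.99 at a mitochondrial limit of 10% and 1.57 without T-lineage barcodes. Leaving out a library gave 0.99 to 1.11. Alternatives chosen after seeing the data gave 0.46 and 1.31 with the T-lineage gate at equal depth, and 0.20 and 1.48 for barcodes with ILC2 and without T-lineage transcripts. On the linear scale, the week 3 level alone was 0.813-fold the naïve level without T-lineage barcodes, a log2 ratio of -0.30. It was 0.831-fold for barcodes with ILC2 and without T-lineage transcripts. With the gate at equal depth, which left Cd3d at 120 CPM among the other barcodes, it was 1.19-fold. The orders of the libraries without T-lineage barcodes were also added after seeing the data.

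For ta-activated against ta-non-activated ILC2s edgeR called 0 genes, DESeq2 called 1037 with 7 list genes, and leaving out a library gave 0 to 1646 genes and 0 to 8 list genes, with the lone library assumed to vary like those of the other group. Counting naïve with ta-non-activated ILC2s, added after seeing the data, gave 0. The differences between weeks 2 and 3 of the 2 groups correlated at -0.05 over 8433 genes, and at 0.07 over 8220 genes without T-lineage barcodes. With 1 difference per group, this cannot tell whether the libraries of a week were paired. The replicate block for the week gave 0 calls and a median of 0.94 for the list. Signs that changed belonged to uncalled genes. Ebp ranged from -0.053 to 1.32 on leaving out a library, Fads1 from -0.045 to 1.41, Acaca from -0.29 to 0.26 and Fads2 from -1.80 to 4.49. Acaca was at 0.0033 without a filter, 0.044 in a fit of 5 libraries, and 0.075 and 0.11 without T-lineage barcodes, by the first gate and at equal depth. Fads2 was at 0.90 with the replicate block, and 3.52 and 1.37 without T-lineage barcodes.

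For cycling barcodes, 2060 genes and 11 list genes were called. Leaving out a library gave 709 to 2194 genes and 3 to 15 list genes. No replicate block gave 257 and 0, and counts thinned to 2000 UMIs gave 1507 genes and 5 list genes. DESeq2 called 2934 genes, 13 of them in the list. Without a filter on low counts edgeR called 2687 genes and 9 list genes, 8 higher and 1 lower in cycling barcodes. Msmo1 was at 0.055 with no replicate block, 0.022 with barcodes thinned to 1000 UMIs, 0.18 without T-lineage barcodes and -0.16 to 0.14 on leaving out a library. Srebf2 was at 0.0025 with DESeq2, 0.011 thinned to 1000, 0.17 in thinned counts, 0.030 without T-lineage barcodes and -0.017 to 0.031 on leaving out a library, and Acaca at -0.23 with no replicate block. The cause of these changes was not tested. Over 22 genes described in full, 280 values for ta-activated ILC2s kept direction and side of the threshold, 16 newly passed it and 12 changed sign. For cycling barcodes 207 kept both, 43 no longer passed, 14 newly passed and 12 changed sign. With 2 libraries a group, and 43 cycling barcodes in the naïve library, low genes such as Scd1, Fads2 and Tm7sf2 were least precise.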

Other observations

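Paralogs of the list differed in which copy supplied the transcripts. Scd2 gave 89.4% to 99.2% of the UMIs of Scd1 and Scd2 in the 5 libraries, lowest in week 2 ta-activated ILC2s. Srebf2 gave 84.5% of the UMIs of Srebf1 and Srebf2 in naïve ILC2s, 59.9% and 67.4% in ta-non-activated ILC2s, and 72.2% and 73.8% in ta-activated ILC2s. Srebf2 has 51015 intron bases and Srebf1 17859, and ratios to naïve fell with intron length over all genes. The part of intron length in the Srebf2 share was not tested. Fads1 (chr19:10182888-10196877, plus strand) and its neighbour Fads2 (chr19:10062765-10101746, minus strand) were close to equal only in the week 3 ta-non-activated library. There Fads1 gave 48.6% of 111 UMIs of the pair, against 72.5% to 96.6% in the other libraries. By the first gate, T-lineage barcodes held 50 of its 54 Fads1 UMIs and 56 of its 57 Fads2 UMIs. Its other barcodes held 4 Fads1 and 1 Fads2 UMIs. The shares of the paralogs are sums over barcodes, and reads common to both copies were not examined here.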
